A study of Mus musculus with 24 samples.

Results

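The genes described here are 7 cytochrome P450 genes of family 4, Cyp4a10, Cyp4a12a, Cyp4a12b, Cyp4a14, Cyp4a31, Cyp4a32 and Cyp4b1, as read by 3′-end RNA sequencing of mouse kidney after myocardial infarction (MI). They were taken by gene symbol from the 56941 genes of the deposited count table, of which 30116 had a count and 12780 passed a filter on low counts. Of the 7 genes, 6 passed that filter and Cyp4a32 did not. The family was picked because Cyp4a14 stood out in the kidneys 28 days after MI in an earlier look at the same libraries. The difference of Cyp4a14 and its relatives between 28d post-MI and the other groups is therefore given as a description, without a test of its own.

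The kidneys came from wild-type male C57BL/6J mice aged 8 to 11 weeks at surgery. MI was induced by tying off the left anterior descending artery for good (LAD ligation), and kidneys were taken 5 days (5d post-MI) or 28 days (28d post-MI) later. Sham mice had the operation without the ligation, and their kidneys, taken 5 days after surgery, are the only controls for both times. With no sham kidney at 28 days, the time since surgery and the later stage after MI cannot be told apart. Libraries of 8 sham, 8 5d post-MI and 6 28d post-MI kidneys were used, out of 8, 9 and 7 listed, because 1 kidney of each MI group could not be matched to a column.

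CYP4A enzymes sit in the endoplasmic reticulum and hydroxylate fatty acids at their terminal (omega) carbon. The resulting alcohol is oxidised to a dicarboxylic acid, which peroxisomes shorten. The same reaction on arachidonic acid gives 20-HETE, a lipid mediator that constricts renal vessels and affects tubular salt transport. In the mouse, Cyp4a10 and Cyp4a14 are classical targets of the fatty acid sensor PPAR alpha, and Cyp4a12a, the main 20-HETE-forming enzyme of the male kidney, depends on androgen. Cyp4b1 belongs to a neighbouring subfamily, acts on shorter fatty acids and many foreign compounds, and is expressed more strongly in male than in female mouse kidney.

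Each library held between 2280618 and 3786275 counts, and 3 counts corresponded to 0.809 to 1.33 CPM, the count scaled to the size of the library. One count stands for one sequenced transcript end, so CPM of different genes are compared as 3′-end counts that do not grow with transcript length. Proximal tubule markers, from the segment in which Cyp4a enzymes are best known, were present in every group at summed levels of 7421 to 10660 CPM. In 3 kidneys the summed level of 7 adrenal steroid synthesis genes was over 50 CPM: 976 CPM in sham replicate 2, 727 CPM in sham replicate 6 and 85.2 CPM in 5d post-MI replicate 5. Summed levels of 8 adipocyte genes ran from 391 to 2120 CPM in sham, from 195 to 1467 CPM 5d post-MI and from 391 to 990 CPM 28d post-MI.

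All 7 genes lie in one stretch of chromosome 4 (GRCm38, GENCODE M21). Cyp4a12a is at chr4:115299046-115332815, Cyp4a12b at chr4:115411624-115439034, Cyp4a14 at chr4:115486200-115496142 and Cyp4a10 at chr4:115518264-115533649. Cyp4a31 follows at chr4:115563649-115579015, Cyp4a32 at chr4:115600969-115621602 and Cyp4b1 at chr4:115624725-115647723. Cyp4a14 and Cyp4b1 are read from the minus strand, the others from the plus strand. A processed pseudogene, Gm12837, overlaps Cyp4a12b on the opposite strand.

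Because a 3′-end read has to be placed among near copies, the ends of the coding sequences are shown, taken from the GRCm38 genome in the orientation of each gene. The last 60 coding bases, stop codon included, are written 5′ to 3′, and capitals mark bases that differ from Cyp4a10. Cyp4b1, the most distant, is left out.
Cyp4a10: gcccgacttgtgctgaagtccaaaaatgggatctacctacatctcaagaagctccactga
Cyp4a31: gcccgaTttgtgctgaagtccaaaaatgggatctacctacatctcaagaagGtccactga
Cyp4a32: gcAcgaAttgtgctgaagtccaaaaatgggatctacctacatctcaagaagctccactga
Cyp4a14: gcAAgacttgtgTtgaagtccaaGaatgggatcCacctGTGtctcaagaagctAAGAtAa
Cyp4a12a: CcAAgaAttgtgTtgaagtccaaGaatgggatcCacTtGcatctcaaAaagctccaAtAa
Cyp4a12b: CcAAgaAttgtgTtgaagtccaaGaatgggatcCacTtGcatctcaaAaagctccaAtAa

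Over these 60 bases Cyp4a31 and Cyp4a32 each differed from Cyp4a10 at 2 positions and Cyp4a14 at 13. Cyp4a12a and Cyp4a12b each differed from Cyp4a10 at 12 positions. Over whole coding sequences Cyp4a12a and Cyp4a12b were 98.5% identical, Cyp4a10 and Cyp4a31 96.6%, Cyp4a10 and Cyp4a14 75.4%, and Cyp4a10 and Cyp4b1 60.1%.

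The stretch that binds the heme iron, the catalytic centre of every P450, shows how closely the enzymes are related. Its 30 coding bases, which cross a splice junction, are given below with the codon of the heme-binding cysteine in capitals.
Cyp4a10: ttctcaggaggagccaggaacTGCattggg
Cyp4a14: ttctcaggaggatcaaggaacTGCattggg
Cyp4a12a: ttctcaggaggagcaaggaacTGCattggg
Cyp4b1: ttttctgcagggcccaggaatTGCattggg

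Cyp4a31 and Cyp4a32 had the same 30 bases as Cyp4a10, and Cyp4a12b those of Cyp4a12a. Cyp4a14 differed from Cyp4a10 at 2 of the 30 bases and Cyp4b1 at 6.

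What matters for counting is the transcript end itself. Of the 451 runs of 50 bases in the last 500 bases of each annotated transcript, none in Cyp4a14 or Cyp4b1 occurred in another of the 7 genes. Cyp4a10 and Cyp4a31 each shared 5.99% of theirs with one another, and Cyp4a12a and Cyp4a12b shared 37%. Cyp4a32 shared 66.7%, and its annotated transcript stops at the stop codon with no 3′ untranslated region. Counts of Cyp4a12a and Cyp4a12b can therefore have been split or dropped between the pair, and Cyp4a32 is uncertain, whereas Cyp4a14 and Cyp4b1 had no such overlap.

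In sham kidney, Cyp4b1 had by far the most transcript ends, at 2122 ± 376 CPM (mean ± SD, n = 8). Cyp4a10 followed with 193 ± 77.6 CPM and Cyp4a31 with 168 ± 39.0 CPM, and the ranges of these neighbours in the order overlapped. Cyp4a14 had 85.2 ± 71.6 CPM, overlapping both, Cyp4a12a 13.3 ± 6.38 CPM and Cyp4a12b 6.88 ± 2.39 CPM, a pair whose ranges also overlapped. The highest Cyp4a12a value in sham, 22.5 CPM, lay just above the lowest Cyp4a14 value, 19.3 CPM. Cyp4a32 had 0 to 2 counts in every kidney, below the 3 counts taken as the floor, and no fold change is given for it.

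Among the 6 tested genes, Cyp4a14 varied most between kidneys in sham and 5d post-MI. In sham kidneys the lowest, median and highest values were 19.3, 52.8 and 204 CPM, 5d post-MI 68.8, 111 and 363 CPM, and 28d post-MI 12.3, 24.4 and 33.2 CPM. Every 28d post-MI kidney was below every 5d post-MI kidney, while sham kidneys spanned both, with a highest-to-lowest ratio of 10.6. Sham replicates 1 to 4 all had more than sham replicates 5 to 8, and the labels name no batch that separates them.

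The log2 fold change of Cyp4a14 was 0.72 (SE 0.46) for 5d post-MI against sham, that is 1.64-fold. For 28d post-MI against sham it was -1.88 (SE 0.61), or 0.272 times the sham level. Between the 2 MI groups it was -2.60 (SE 0.60), or 0.165 times the 5d level. The 28d post-MI kidneys were also the more uniform, with a coefficient of variation of 36.5% against 84% in sham and 70.3% 5d post-MI.

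Cyp4a10, the other PPAR alpha-responsive enzyme, also had its highest median 5d post-MI, in a narrower range, while its sham and 28d post-MI medians were close. Its lowest, median and highest values were 124, 160 and 322 CPM in sham, 148, 221 and 468 CPM 5d post-MI, and 122, 163 and 199 CPM 28d post-MI. All 3 groups overlapped. Its log2 fold change was 0.33 (SE 0.24) 5d post-MI against sham, -0.25 (SE 0.27) 28d post-MI against sham and -0.58 (SE 0.27) between 28d and 5d post-MI.

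Cyp4a31, the neighbour closest to Cyp4a10, varied least among the Cyp4a genes. It ranged from 128 to 243 CPM around a median of 161 in sham, from 148 to 221 around 196 CPM 5d post-MI, and from 138 to 205 around 171 CPM 28d post-MI. The groups overlapped almost fully, and the log2 fold changes were 0.18 (SE 0.13), 0.05 (SE 0.14) and -0.13 (SE 0.14) in the same order of comparisons. The value for 28d post-MI against sham became -0.002 without 28d post-MI replicate 7.

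**Figure D1:**
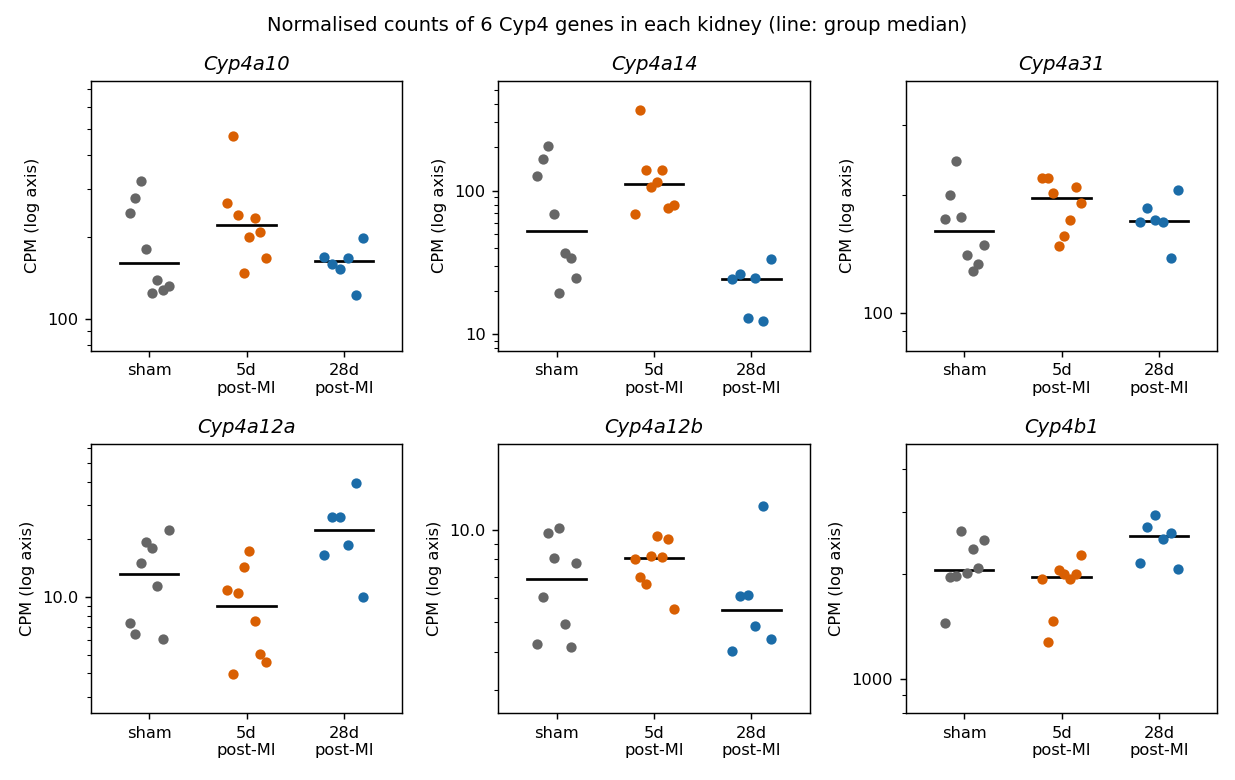
CPM (log axis) of the 6 tested genes in each of the 22 kidneys, by group, 1 point per kidney, with a line at the group median. The 28d post-MI values of Cyp4a14 (12.3 to 33.2 CPM) lie below all 5d post-MI values (68.8 to 363 CPM), while the groups overlap for the other 5 genes.

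Cyp4a12a, the androgen-dependent arachidonic acid omega-hydroxylase, had the opposite order of groups. Its lowest, median and highest values were 6.07, 13.2 and 22.5 CPM in sham, 3.96, 9.02 and 17.3 CPM 5d post-MI, and 10.03, 22.4 and 39.3 CPM 28d post-MI. In 4 of the 6 kidneys 28d post-MI it exceeded every 5d post-MI kidney, and the groups overlapped. The log2 fold changes were -0.55 (SE 0.37) 5d post-MI against sham, 0.75 (SE 0.35) 28d post-MI against sham and 1.30 (SE 0.38) between 28d and 5d post-MI. These rest on 12 to 99 counts per kidney.

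Its near copy Cyp4a12b did not follow. It ranged from 4.14 to 10.2 CPM in sham, from 5.50 to 9.53 CPM 5d post-MI and from 4.02 to 11.9 CPM 28d post-MI, with 10 to 30 counts per kidney. The log2 fold changes were 0.18 (SE 0.20), -0.14 (SE 0.23) and -0.32 (SE 0.23). The counts of the pair were also summed, which removes any splitting between them but brings back no dropped reads. The log2 fold change was then -0.26 at 5d post-MI against sham, 0.51 at 28d post-MI against sham and 0.77 between the MI groups.

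Cyp4b1 ranged from 1450 to 2646 CPM around a median of 2049 in sham, from 1277 to 2262 around 1965 CPM 5d post-MI and from 2066 to 2944 around 2562 CPM 28d post-MI. The groups overlapped, although 4 of 6 kidneys 28d post-MI were above every 5d post-MI kidney. The log2 fold changes were -0.19 (SE 0.12), 0.24 (SE 0.13) and 0.42 (SE 0.13). With 4182 to 9812 counts per kidney, counting error was small beside the spread between kidneys.

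**Figure D2:**
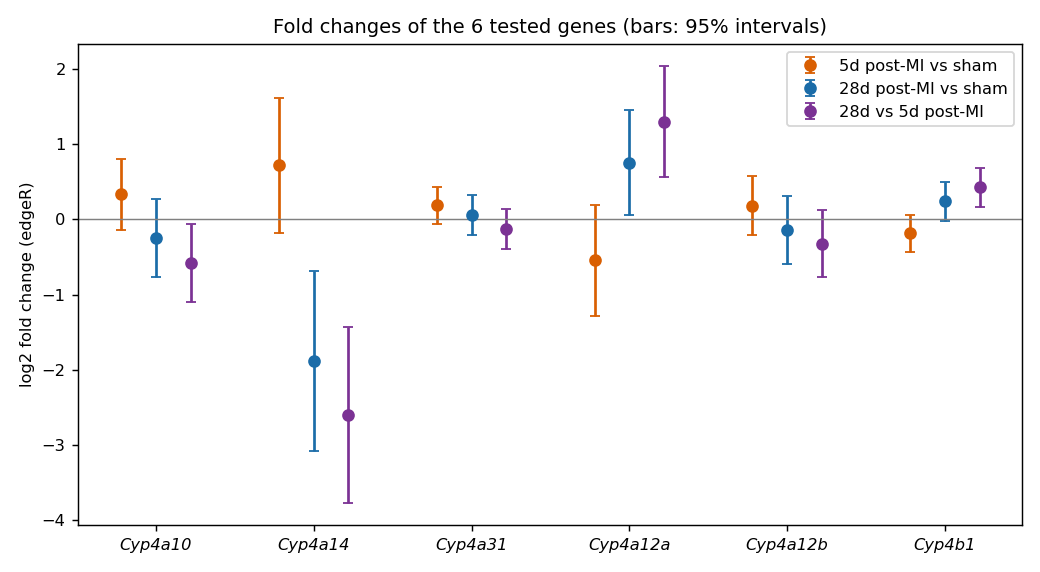
Log2 fold change by edgeR of each of the 6 tested genes in the 3 comparisons; bars are 95% intervals. Cyp4a14 is at 0.72 for 5d post-MI against sham, at -1.88 for 28d post-MI against sham and at -2.60 between the MI groups, and Cyp4a12a runs the other way.

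In the fit across all 12780 genes by edgeR's quasi-likelihood test with Benjamini-Hochberg adjustment (adjusted p under 0.05), none of the 6 genes was called at 5d post-MI against sham, where 0.0704% of all genes were, and their adjusted p ran from 0.759 to 0.886. None was called at 28d post-MI against sham (0.0235% of all genes) or between 28d and 5d post-MI (0.415%). At an unadjusted p under 0.05, none of the 6 passed at 5d post-MI against sham, 2 at 28d post-MI against sham and 4 between the MI groups. The shares among all genes were 7.9%, 8.68% and 9.05%. Groups without overlap in CPM were found for 0.0548%, 0.258% and 0.344% of all genes in these comparisons, and for 0, 0 and 1 of the 6 genes, the 1 being Cyp4a14. Since the family was chosen on the later time, nothing is read from the counts there.

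DESeq2's Wald test, the test used in the study, called none of the 6 at 5d post-MI against sham (0.274% of all genes), 1 at 28d post-MI against sham (Cyp4a14, 0.329%) and 2 between 28d and 5d post-MI (Cyp4a14 and Cyp4b1, 1.06% of the 9063 genes it adjusted over). The calls of Cyp4a14 against sham (Wald test, adjusted p = 0.0496) and of Cyp4b1 (Wald test, adjusted p = 0.0497) lay just under the threshold of 0.05. The counts at 28d post-MI rest on the values by which the family was picked, so they describe these libraries and test nothing. The comparisons share groups, 5d and 28d post-MI being each set against the same sham kidneys. All levels are from whole kidney, in which fewer cells that express a gene and less RNA per cell cannot be told apart.

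Expressed within the Cyp4a genes, the composition of the transcript pool differed between kidneys. Cyp4a14 made up 15.7 ± 7.98% of the summed Cyp4a counts in sham (n = 8, 6.18 to 25.7%) and 21.9 ± 6.94% 5d post-MI (n = 8, 11.96 to 34.1%). In the 6 kidneys 28d post-MI the lowest share was 3.52% and the highest 7.35%. This share does not depend on how libraries are scaled. The mean Cyp4a10 share was 41.3 ± 1.76% in sham, 40.7 ± 3.61% 5d post-MI and 41.6 ± 2.62% 28d post-MI. That of Cyp4a31 was 38.0 ± 6.39%, 34.2 ± 6.96% and 44.8 ± 1.46% in these groups. For Cyp4a12a the shares were 3.31 ± 2.12%, 1.78 ± 1.12% and 6.18 ± 3.40%. Shares within a kidney add up to the whole, so they are not independent of one another.

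**Figure D3:**
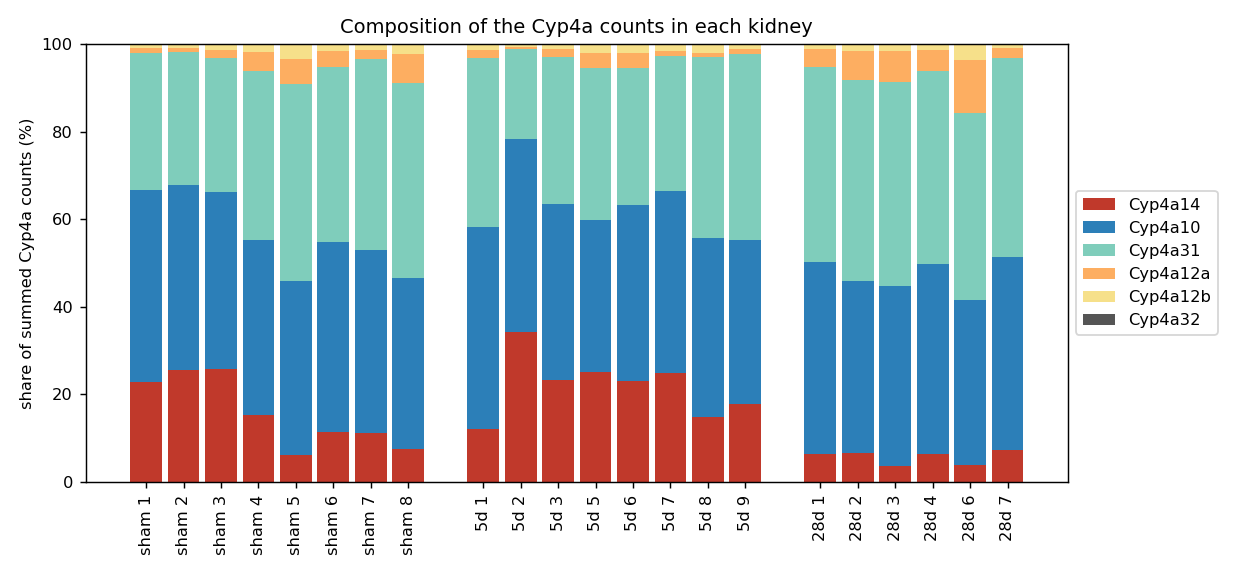
Share (%) of each Cyp4a gene in the summed Cyp4a counts of each kidney, 1 bar per kidney, ordered by group and replicate number. The Cyp4a14 share is 3.52 to 7.35% 28d post-MI and 11.96 to 34.1% 5d post-MI, and the mean Cyp4a10 share is 40.7 to 41.6% over the 3 groups.

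The spread between kidneys of one group was shared among members. After subtraction of the group means of log2 CPM, relations among the 15 pairs of the 6 genes were tested over 22 kidneys by permuting kidneys within groups (100000 two-sided permutations, Benjamini-Hochberg adjusted over the 15 pairs). Cyp4a14 and Cyp4a10 varied together, with Pearson's r = 0.88 (permutation p = 3e-05, adjusted 0.000225) and Spearman's rho = 0.81 (permutation p = 8e-05, adjusted 0.0006). Without the 2 kidneys farthest from the median of Cyp4a10, r was 0.80, and within sham, 5d and 28d post-MI it was 0.98, 0.73 and 0.87. Unlike Cyp4a10 and Cyp4a31, this pair shared no run of 50 bases at its transcript ends. In sham, Cyp4a10 had the split seen for Cyp4a14, with 181 to 322 CPM in replicates 1 to 4 and 124 to 139 CPM in replicates 5 to 8. The permutations take kidneys of a group as exchangeable. Here and in the relations below they cannot tell such a split from a relation kidney by kidney.

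Cyp4a10 and Cyp4a31 gave r = 0.83 (permutation p = 1e-05, the smallest these permutations can give, adjusted 0.00015) and rho = 0.80 (permutation p = 5e-05, adjusted 0.0006), and r = 0.81 without the 2 farthest kidneys. Cyp4a14 and Cyp4a31 gave r = 0.67 (permutation p = 0.00354, adjusted 0.0106) and rho = 0.63 (permutation p = 0.00502, adjusted 0.0151), falling to 0.55 without the 2 farthest kidneys. Within groups this last relation was 0.88 in sham, 0.11 5d post-MI and 0.80 28d post-MI.

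Cyp4b1 varied against Cyp4a14 and Cyp4a10. Its r with Cyp4a14 was -0.60 (permutation p = 0.0064, adjusted 0.016) and rho was -0.55 (permutation p = 0.0186, adjusted 0.0466), with r = -0.71 without the 2 kidneys farthest in Cyp4a14. Its r with Cyp4a10 was -0.65 (permutation p = 0.00343, adjusted 0.0106) and rho was -0.65 (permutation p = 0.00349, adjusted 0.0131), with r = -0.56 without the 2 farthest. Both relations lost their call without 5d post-MI replicate 2, the kidney with the most Cyp4a14 and the least Cyp4b1 of its group, where r was -0.49 and -0.52. The near copies Cyp4a12a and Cyp4a12b gave r = 0.71 (permutation p = 0.00046, adjusted 0.0023), rho = 0.73 (permutation p = 0.0002, adjusted 0.001) and r = 0.71 without the 2 farthest kidneys, a relation between genes that share transcript ends.

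Of the 15 pairs, 6 passed an adjusted p under 0.05, 4 positive and 2 negative. Cyp4a12a with Cyp4a14 did not pass, at r = -0.39 (permutation p = 0.089, adjusted 0.148) and rho = -0.42 (permutation p = 0.0604, adjusted 0.101), and r was -0.26 without the 2 farthest kidneys.

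Among 11320 other genes with a mean of at least 5 CPM, Cyp4a10 was the one whose within-group pattern was most like that of Cyp4a14. It was followed by Rabac1 (r = 0.87), which encodes a Golgi-associated Rab-binding protein, the carbonyl reductase Cbr1 (0.84), the amino acid transporter Slc38a3 (0.81), the retinol saturase Retsat (0.77) and the adhesion molecule Ceacam2 (0.75). In all, 0.133% of these genes had an r over 0.7 with Cyp4a14. For Cyp4a12a the most alike genes were Cenpx (0.80), Tmbim6 (0.73) and Lias (0.71). For Cyp4b1 they were Inmt (0.92), a methyltransferase, Cyp2j13 (0.88), a P450, and Gas2 (0.87), and 1.12% of genes had an r over 0.7 with it. These genes were picked for their r over 22 kidneys, which all come from the same libraries, so no p is given.

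Androgen-dependent or male-biased kidney genes were set beside the family because Cyp4a12a belongs to that regulation. The mean log2 CPM of the 12 genes, among them Kap, Odc1, Slco1a1 and Cyp2j13, ran against Cyp4a14 between kidneys of a group. In a family of 12 relations (Cyp4a14, Cyp4a12a and Cyp4b1 with 4 gene lists), r was -0.77 (permutation p = 9e-05, adjusted 0.00054) and rho -0.77 (permutation p = 0.00015, adjusted 0.0009). Without the 2 kidneys farthest in Cyp4a14, r was -0.80, and it was -0.82 within sham, -0.89 within 5d post-MI and -0.96 within 28d post-MI. For Cyp4a14, 10 of the 12 genes had a negative r, with a median of -0.62 against 0.0092 over all tested genes.

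Cyp4b1 ran with the same list, at r = 0.85 (permutation p = 1e-05, adjusted 0.00012) and rho = 0.79 (permutation p = 8e-05, adjusted 0.0009), with r = 0.76 without the 2 farthest kidneys. Of the 12 genes, 11 had a positive r with Cyp4b1. Cyp4a12a gave r = 0.53 (permutation p = 0.0123, adjusted 0.0492) and rho = 0.58 (permutation p = 0.00788, adjusted 0.0245), with r = 0.45 without the 2 farthest kidneys. The call for Cyp4a12a by Pearson's r was lost in 16 of 23 alternatives that left out kidneys, 5d post-MI replicate 2 among them (r = 0.46).

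With the mean of 23 PPAR alpha targets, Cyp4a14 gave r = 0.43 (permutation p = 0.0879, adjusted 0.211) and rho = 0.42 (permutation p = 0.0916, adjusted 0.22), with r = 0.33 without the 2 farthest kidneys. Within groups r was 0.91 in sham, -0.64 5d post-MI and 0.24 28d post-MI, so the sign was not the same in all groups. With the mean of 9 proximal tubule markers, Cyp4a14 gave r = -0.0036 (permutation p = 0.99, adjusted 0.99), rho = -0.081 (permutation p = 0.751, adjusted 0.901) and r = -0.31 without the 2 farthest kidneys. Within groups this r was 0.20 in sham, -0.22 5d post-MI and -0.54 28d post-MI. With the mean of 7 adipocyte genes Cyp4a14 gave r = -0.0074 (permutation p = 0.976, adjusted 0.99), rho = 0.0062 (permutation p = 0.98, adjusted 0.98) and r = 0.052 without the 2 farthest kidneys. Within groups that r was 0.45 in sham, -0.52 5d post-MI and 0.12 28d post-MI, so values near 0 over all kidneys held both signs. Cyp4b1 gave r = 0.47 (permutation p = 0.037, adjusted 0.111) and rho = 0.59 (permutation p = 0.00818, adjusted 0.0245) with the proximal tubule markers, passing by rank only, and r = 0.54 without the 2 farthest kidneys. With the PPAR alpha targets Cyp4b1 gave r = -0.16 (permutation p = 0.518, adjusted 0.69) and rho = -0.25 (permutation p = 0.298, adjusted 0.448), with r = -0.18 without the 2 farthest kidneys. Within groups this r was -0.67 in sham, 0.64 5d post-MI and -0.26 28d post-MI, so its sign differed between groups.

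**Figure D4:**
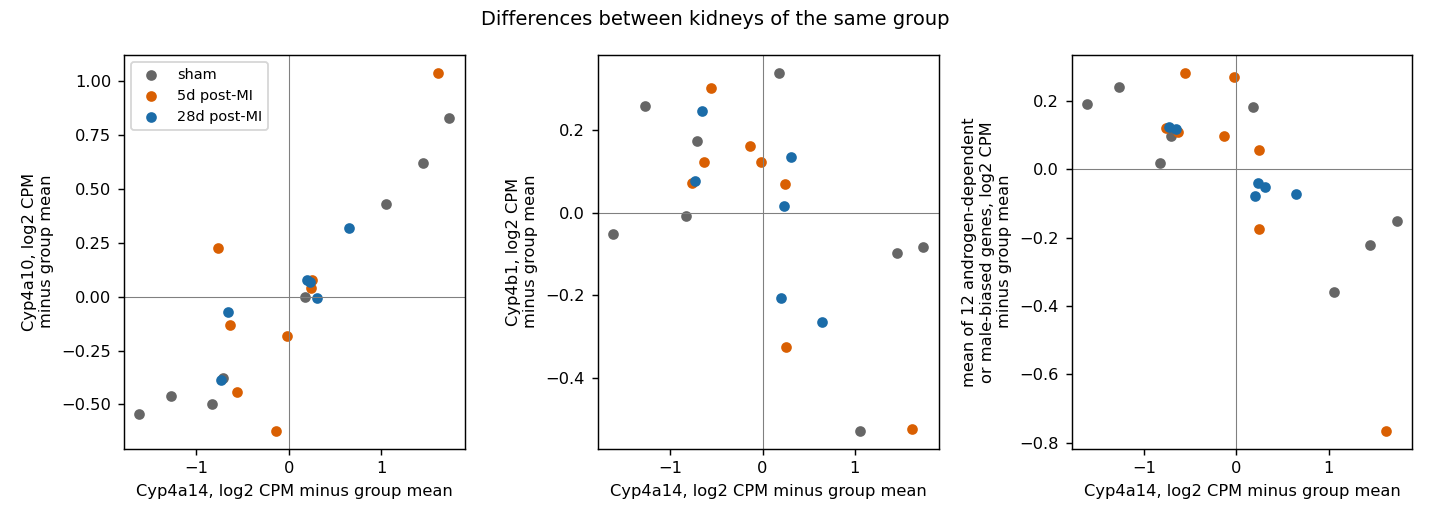
Log2 CPM of Cyp4a10 (left), Cyp4b1 (middle) and the mean of 12 androgen-dependent or male-biased genes (right) against log2 CPM of Cyp4a14, each minus its group mean, 1 point per kidney, coloured by group. Cyp4a10 increases with Cyp4a14 (r = 0.88), while Cyp4b1 (r = -0.60) and the androgen gene mean (r = -0.77) decrease.

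Genes around the family were then read across groups. By DESeq2 only Cyb5b (5d post-MI against sham) and Ephx2 (between 28d and 5d post-MI) of the lists below had an adjusted p under 0.05, and by edgeR no list gene did. Counts at an unadjusted edgeR p under 0.05 are given first for each MI group set against sham, the earlier time before the later, and last for the difference between the MI groups. In the same order, 7.9%, 8.68% and 9.05% of all genes passed at that threshold.

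The PPAR alpha targets, enzymes of mitochondrial and peroxisomal fatty acid oxidation for the most part, come first. Of 28 listed, 23 were tested and none passed an adjusted p under 0.05 by edgeR in any comparison. Between 28d and 5d post-MI their median log2 fold change was -0.12, against -0.0046 over all genes, and 6 had an unadjusted p under 0.05, all lower 28d post-MI. At 28d post-MI against sham 5 did, all lower, and at 5d post-MI against sham 3 did, 2 higher and 1 lower. Over all genes the shares were 9.05% between the MI groups, 8.68% at 28d and 7.9% at 5d post-MI against sham, in either direction.

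Acaa2, the last thiolase of mitochondrial beta-oxidation, had 221 ± 19.8 CPM in sham, 216 ± 22.2 CPM 5d post-MI and 181 ± 18.2 CPM 28d post-MI, with a log2 fold change against sham of -0.29 (SE 0.07, edgeR adjusted p = 0.119). The subunits of the mitochondrial trifunctional protein, Hadha and Hadhb, gave log2 fold changes of -0.20 (SE 0.07) and -0.29 (SE 0.08) in that comparison, with edgeR adjusted p of 0.335 and 0.231.

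The receptors and their partners showed less. Of 11 tested, none passed by edgeR (1, 2 and 0 unadjusted), and the median log2 fold change between 28d and 5d post-MI was -0.02. Ppara itself, the receptor that drives Cyp4a10 and Cyp4a14, was low at 2.77 ± 1.83 CPM in sham, 3.17 ± 0.941 CPM 5d post-MI and 2.56 ± 0.852 CPM 28d post-MI, and its log2 fold change between the MI groups was -0.34 (SE 0.35, edgeR adjusted p = 0.85). Pparg, the adipocyte receptor, had log2 fold changes against sham of -0.70 (SE 0.29) 5d post-MI and -0.78 (SE 0.33) 28d post-MI, with edgeR adjusted p of 0.564 and 0.501. Ppard gave -0.33 (SE 0.16) 28d post-MI against sham, with an edgeR adjusted p of 0.575.

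In the androgen-dependent or male-biased list, all 12 genes were tested and none passed by edgeR (1, 4 and 4 unadjusted). Their median log2 fold change was 0.23 at 28d post-MI against sham and 0.27 between 28d and 5d post-MI. The 4 genes with an unadjusted p under 0.05 in each of these comparisons were all higher 28d post-MI. Of all genes, 8.68% and 9.05% passed there, in either direction. Kap, the kidney androgen-regulated protein, had 42730 to 51700 CPM in sham, 28490 to 59090 CPM 5d post-MI and 53720 to 61790 CPM 28d post-MI. Every 28d post-MI kidney was above every sham kidney, and the log2 fold change was 0.28 (SE 0.11, edgeR adjusted p = 0.479). Slco1a1, an organic anion transporter, gave 0.79 (SE 0.30, edgeR adjusted p = 0.391) and Gusb, beta-glucuronidase, 0.43 (SE 0.15, edgeR adjusted p = 0.321) between 28d and 5d post-MI.

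**Figure D5:**
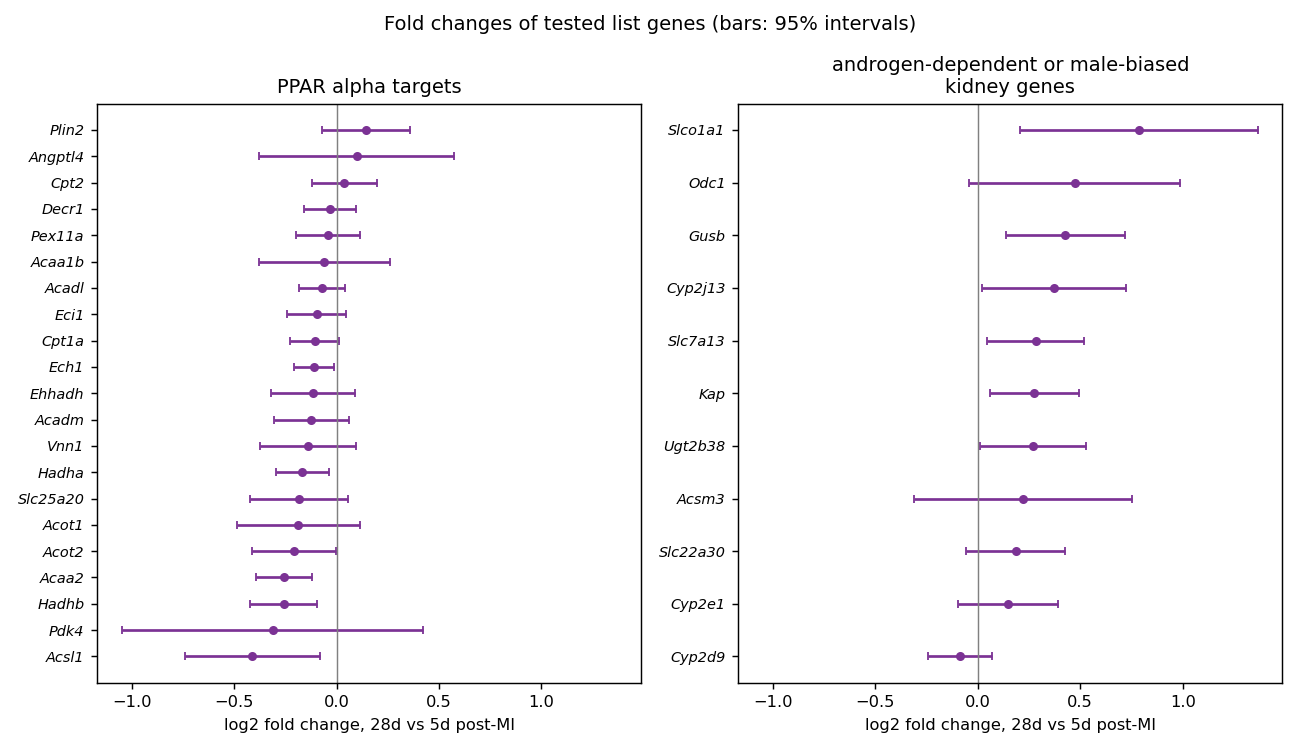
Log2 fold change between 28d and 5d post-MI (edgeR, bars 95% intervals) of tested PPAR alpha targets (left) and androgen-dependent or male-biased genes (right), without a few genes not reported here. Medians over all tested genes of each list are -0.12 and 0.27, Acaa2 is at -0.26 and Slco1a1 at 0.79, and no gene passed an adjusted p under 0.05.

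The 3 genes listed as female-biased did not pass by edgeR either (0, 0 and 2 unadjusted). All kidneys were male, so the sex bias of these genes could not be checked here. Cyp2a4 was abundant in these male kidneys, at 661.5 ± 91.8 CPM in sham. Between 28d and 5d post-MI Cyp2a4, a steroid hydroxylase, gave 0.29 (SE 0.09, edgeR adjusted p = 0.253). Slc7a12, an amino acid transporter, gave -1.55 (SE 0.63, edgeR adjusted p = 0.433) there. That value rests on 2 to 5 counts per kidney 28d post-MI and 4 to 29 counts 5d post-MI, near the floor of 3 counts. The prolactin receptor Prlr gave 0.61 (SE 0.39, edgeR adjusted p = 0.755) for 5d post-MI against sham.

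P450 enzymes receive electrons from cytochrome P450 reductase (Por) and cytochrome b5. All 4 electron donor genes were tested and none passed by edgeR (2, 1 and 1 unadjusted). Cyb5b, the outer mitochondrial membrane cytochrome b5, had 309 to 340 CPM in sham and 268 to 308 CPM 5d post-MI, without overlap, and a log2 fold change of -0.17 (SE 0.04, edgeR adjusted p = 0.119). Cyb5a, the microsomal form, gave 0.20 (SE 0.07, edgeR adjusted p = 0.234) between 28d and 5d post-MI. Por gave 0.12 (SE 0.08, edgeR adjusted p = 0.704) 28d post-MI against sham and Cyb5r3, a cytochrome b5 reductase, 0.07 (SE 0.06, edgeR adjusted p = 0.802) between the MI groups.

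Of the enzymes that oxidise omega-hydroxy fatty acids further, 13 were tested and none passed by edgeR (0, 0 and 2 unadjusted). Their median log2 fold change was 0.0068 between 28d and 5d post-MI. The fatty aldehyde dehydrogenase Aldh3a2 gave 0.17 (SE 0.07, edgeR adjusted p = 0.423) and the alcohol dehydrogenase Adh1 0.32 (SE 0.13, edgeR adjusted p = 0.457) in that comparison. The peroxisomal enzyme Ehhadh gave 0.18 (SE 0.10, edgeR adjusted p = 0.673) 5d post-MI against sham.

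Of the other genes of arachidonic acid metabolism, 16 were tested and none passed by edgeR (3, 0 and 4 unadjusted). Ephx2, the soluble epoxide hydrolase that inactivates epoxides of arachidonic acid, came closest. Its lowest, median and highest values were 288, 336 and 380 CPM in sham, 191, 294 and 338 CPM 5d post-MI, and 344, 367 and 397 CPM 28d post-MI, the MI groups not overlapping. The log2 fold change between 28d and 5d post-MI was 0.39 (SE 0.09, edgeR adjusted p = 0.0655). The phospholipase Pla2g4a gave -0.49 (SE 0.20, edgeR adjusted p = 0.43), the prostacyclin synthase Ptgis -0.48 (SE 0.21, edgeR adjusted p = 0.468) and the cyclooxygenase Ptgs1 -0.32 (SE 0.15, edgeR adjusted p = 0.534) there. Gpr75, a receptor for 20-HETE, did not pass the filter on low counts.

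The remaining CYP4 genes were scarce in these kidneys. Of 16 listed, 4 were tested, at a summed level of all 16 between 48.9 and 67.6 CPM per kidney, and none passed by edgeR (0 unadjusted in each comparison). Cyp4f13 gave -0.21 (SE 0.11, edgeR adjusted p = 0.601) between 28d and 5d post-MI, and the edgeR adjusted p of Cyp4f16, Cyp4f17 and Cyp4v3 in any comparison was at least 0.768.

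Clock genes were read because Cyp4a genes follow the light-dark and feeding cycle and the hour of collection is not given in the sources used here. None of 12 tested passed by edgeR (0, 1 and 1 unadjusted). Arntl, a core activator, varied from 0.402 to 11.8 CPM among the 6 kidneys 28d post-MI, and its log2 fold change against 5d post-MI was 1.57 (SE 0.65, edgeR adjusted p = 0.457). These values rest on 1 to 29 counts per kidney 28d post-MI and 2 to 7 counts 5d post-MI, with the lowest below the floor of 3 counts. The repressors Cry1 and Per2 gave 1.09 (SE 0.50, edgeR adjusted p = 0.555) 28d post-MI against sham and 0.69 (SE 0.38, edgeR adjusted p = 0.707) 5d post-MI against sham. Clock gave 0.19 (SE 0.10, edgeR adjusted p = 0.614) between the MI groups. The part of collection time in the Cyp4a14 difference was not tested.

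Markers of other cells were read in the same way. The 7 tested adipocyte genes had a median log2 fold change of -0.99 at 28d post-MI against sham and -0.52 between 28d and 5d post-MI, and none passed by edgeR (1, 5 and 0 unadjusted). Among them Plin1 gave -1.48 (SE 0.46, edgeR adjusted p = 0.335), Ucp1 -2.56 (SE 0.95, edgeR adjusted p = 0.444) and Fabp4 -1.08 (SE 0.42, edgeR adjusted p = 0.462) 28d post-MI against sham, and Retn -0.84 (SE 0.36, edgeR adjusted p = 0.57) 5d post-MI against sham. With the adipocyte level as a covariate the Cyp4a14 log2 fold change was -2.02 at 28d post-MI against sham and -2.59 between the MI groups. That fit has 1 slope for all groups, while r of Cyp4a14 with adipocyte genes was 0.45 in sham, -0.52 5d post-MI and 0.12 28d post-MI. It therefore cannot take out an adipocyte part that differs between groups. The same covariate took Cyp4a12a from 0.75 to 0.43 at 28d post-MI against sham and from 1.30 to 1.22 between the MI groups, and all 7 adipocyte genes had a negative r with Cyp4a12a within groups (median -0.41). Without the 3 kidneys that held adrenal transcripts the Cyp4a14 log2 fold change was -1.77 at 28d post-MI against sham and -2.64 between the MI groups. The part of these cells in the Cyp4a14 values was not tested.

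Of 9 proximal tubule markers and 8 of the distal nephron and collecting duct, none passed by edgeR (3, 3 and 5, and 2, 1 and 0 unadjusted). Medians between 28d and 5d post-MI were 0.07 and -0.02. The lactate transporter Slc5a12 gave -0.36 (SE 0.11, edgeR adjusted p = 0.173) and the dicarboxylate transporter Slc13a3 0.43 (SE 0.15, edgeR adjusted p = 0.344) there, while Cubn and Aqp1 gave 0.18 (SE 0.06, edgeR adjusted p = 0.401) and 0.28 (SE 0.09, edgeR adjusted p = 0.431) 5d post-MI against sham. In the distal list Kcnj1 gave 0.29 (SE 0.09, edgeR adjusted p = 0.331) 28d post-MI against sham and Umod 0.21 (SE 0.08, edgeR adjusted p = 0.547) 5d post-MI against sham. Liver, the other organ rich in Cyp4a enzymes, was checked with 6 genes, of which 4 were tested and none passed by edgeR (1, 0 and 1 unadjusted). Its defining marker Alb stood at 3.63 ± 1.31 CPM in sham, 2.88 ± 0.547 CPM 5d post-MI and 4.30 ± 2.93 CPM 28d post-MI. Serpina1a, an antiprotease gene with close copies, had 56.0 ± 13.9, 81.4 ± 30.7 and 53.3 ± 20.8 CPM in these groups, its means in the order of the Cyp4a14 means, and a log2 fold change between the MI groups of -0.63 (SE 0.26, edgeR adjusted p = 0.477). Ttr, a carrier of thyroid hormone, had 612 ± 82.9, 601 ± 158 and 567 ± 118 CPM. The part of liver transcripts in the Cyp4a values was not tested.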

How the data were processed

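Kidney RNA was read with MACE, a 3′-end method with unique molecular identifiers. Per the labels and the study's methods, the authors removed PCR duplicates, trimmed reads with Cutadapt and counted genes with HTSeq; the submitters' processing notes also list Bowtie2, FastQC, DESeq2 and build mm39, while the methods name mm10. The deposited table holds raw counts per gene and a second set of values that equal CPM (counts scaled to library size) within 5e-06, which the authors did not divide by length and which were not used. Of 48 value columns, 4 were left out because 2 libraries carry one name. Reads of near copies may be split or dropped.

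Counts of 22 kidneys (2280618 to 3786275 per kidney) were tested with edgeR 4.0.16 (TMM, filterByExpr with a minimum count of 10, robust quasi-likelihood F test, 3 groups in one fit). CPM printed here are TMM-normalised, and log2 CPM for relations used a prior count of 2. DESeq2 1.42.0, other scalings and filters, covariates and left-out kidneys were alternatives. Symbols were matched for 51948 genes. Kidneys within groups differed by more than counting noise (chi-squared per degree of freedom 1.77 to 8.1 over 71 pairs). Each kidney is listed as a separate animal's sample. Scripts were tested on simulated data. Replicate numbers were checked for pairing and do not pair kidneys. Intervals and standard errors of fold changes come from the edgeR fit and include the spread between kidneys, whereas the floor of 3 counts covers counting error only.

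The genes and lists were chosen with earlier results of these data known. Named are the 7 genes; from each list, genes with an adjusted p under 0.05 or otherwise up to 4 with the lowest unadjusted p; and the 6 genes most like Cyp4a14 and 3 each most like Cyp4a12a and Cyp4b1 within groups. Odc1, Cyp2j13 (as a list gene), Ppara, Gpr75 and Gm12837 are named besides. Values of a few single list genes are not reported here, although the list counts, means and medians include them.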

Additional observations from a re-analysis of the deposited data

Results flagged for a closer look

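Of 18 sets of values (6 genes in 3 groups), 3 held a kidney far from the rest of its group by Dixon's criterion at the 95% level. The criterion was applied to CPM without logs, and its rate of about 1 in 20 groups by chance holds for normally distributed values. The 18 sets are not independent either, since members varied together between kidneys. In 5d post-MI replicate 2, Cyp4a14 was at 363 CPM with the next kidney at 140 CPM, a gap of 0.758 of the range against a limit of 0.526. In the same kidney Cyp4a10 was at 468 CPM with the next at 266 CPM, a gap of 0.63. Without this kidney the Cyp4a14 log2 fold change was 0.32 at 5d post-MI against sham and -2.20 between 28d and 5d post-MI. In 28d post-MI replicate 6, Cyp4a12b was at 11.9 CPM with the next at 6.10 CPM, a gap of 0.737 against a limit of 0.625, and Cyp4a12a was also highest there, at 39.3 CPM.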

How the results depend on the processing

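Fold changes of the 6 genes kept their direction and their side of the 0.05 threshold in 162 of 167 comparisons with another setting; the other 5 passed the threshold only under that setting. These differences include those on which the family was picked, so the passes support nothing. The genes of the family called were 1 at 28d post-MI against sham and 2 between the MI groups by DESeq2, and 1 between the MI groups with only those 2 groups and with the replicate block, although the replicate numbers do not pair these kidneys. Leaving out a kidney gave 0 to 1 called between the MI groups, 1 being Cyp4a14 without sham replicate 3 or without 5d post-MI replicate 1. The Cyp4a31 value for 28d post-MI against sham ran from -0.002 to 0.15.

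Counts of all called genes (9 and 3 against sham at 5d and 28d, 53 between the MI groups) moved to 35, 42 and 96 with DESeq2, 80, 94 and 160 without the count filter, 2, 31 and 26 with only 2 groups, and 2, 24 and 80 with the replicate block. The first 2 counts became 1 and 1 with the adrenal covariate and 2 and 1 without kidneys holding adrenal transcripts, the first 1 with the adipocyte covariate, and the second 6 with a filter of 1 CPM in 6 kidneys. Leaving out 1 kidney gave ranges of 1 to 38, 0 to 29 and 41 to 84.

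The within-group relations were recomputed without each kidney and without those holding adrenal transcripts, choices made after seeing the data. The signs of weak relations turned: r of Cyp4a12b with Cyp4a31 ran from -0.28 to 0.17, of Cyp4a14 with proximal tubule markers from -0.22 to 0.082 (0.056 without adrenal-holding kidneys) and with adipocyte genes from -0.18 to 0.13, and of Cyp4b1 with adipocyte genes from -0.14 to 0.18 and with PPAR alpha targets from -0.34 to 0.0104. Cyp4a14 with Cyp4a10 (0.85 to 0.92) and with the androgen list (-0.80 to -0.75) passed in all 23. With 12 to 99 counts per kidney for Cyp4a12a and 10 to 30 for Cyp4a12b, depth limits what can be seen of that pair. The causes of these shifts were not tested.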
